A study of Mus musculus with 24 samples.

Results

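Pcp2, Calb1, Car8, Pvalb, Itpr1, Ppp1r17 and Rgs8 are 7 genes known for high expression in Purkinje cells, the large output neurons of the cerebellar cortex. They were taken by name, and each matched 1 Ensembl entry among the 37621 gene entries of the count tables. Their levels were followed in the cerebellum, cortex, hippocampus and olfactory bulb of C57BL/6 mice, in Cdr1as knockout (KO) and wild-type (WT) animals, with 3 libraries of each genotype per region and 24 libraries in all. Cdr1as is a circular RNA, abundant in neurons, that binds the microRNA miR-7. The genotype label names the Cdr1as knockout and no other allele, all mice had the same strain label and no treatment was named, and the labels used here state neither age nor sex. Each library was total RNA of a dissected region after removal of ribosomal RNA, so it mixed all cells of that region.

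Purkinje cells receive excitatory input from parallel and climbing fibres and are the only output of the cerebellar cortex. In their dendrites, metabotropic glutamate receptors act through G proteins and phospholipase C to make inositol trisphosphate (IP3), which opens a calcium channel of the endoplasmic reticulum encoded by Itpr1. Calcium-binding proteins such as calbindin (Calb1) and parvalbumin (Pvalb) then buffer the calcium, and both are also made by neurons outside the cerebellum. Car8 is a relative of the carbonic anhydrases that lacks the enzyme activity and binds the IP3 receptor. Pcp2 and Rgs8 are regulators of G-protein signalling, and Ppp1r17 (G-substrate) inhibits protein phosphatases once it is phosphorylated by the cyclic GMP-dependent kinase.

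The promoter windows of 3 of the 7 members, Pcp2, Pvalb and Rgs8, were found in the table of RefSeq promoters on GRCm38.p6. That table held no window of the other members, so availability and not expression set which windows are shown. Each window runs 5′ to 3′ on the gene's strand, from 250 bases before to 50 bases after the annotated start, the most upstream one where RefSeq lists several. The Pcp2 window lies at chr8:3625498-3625797 on the minus strand, the Pvalb window at chr15:78206351-78206650 on the minus strand and the Rgs8 window at chr1:153652787-153653086 on the plus strand. Capitals mark AGGTCA, the core read by many nuclear receptors, among them the product of Rora.
Pcp2: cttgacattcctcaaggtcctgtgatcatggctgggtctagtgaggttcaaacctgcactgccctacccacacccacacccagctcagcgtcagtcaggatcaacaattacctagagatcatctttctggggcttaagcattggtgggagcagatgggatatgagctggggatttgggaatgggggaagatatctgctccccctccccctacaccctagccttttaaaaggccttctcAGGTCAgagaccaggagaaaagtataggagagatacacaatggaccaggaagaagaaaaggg
Pvalb: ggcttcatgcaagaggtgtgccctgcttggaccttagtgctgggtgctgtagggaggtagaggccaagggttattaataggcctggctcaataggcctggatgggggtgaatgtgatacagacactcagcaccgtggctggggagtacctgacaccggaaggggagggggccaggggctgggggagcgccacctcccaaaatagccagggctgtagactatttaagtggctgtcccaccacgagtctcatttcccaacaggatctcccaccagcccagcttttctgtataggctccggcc
Rgs8: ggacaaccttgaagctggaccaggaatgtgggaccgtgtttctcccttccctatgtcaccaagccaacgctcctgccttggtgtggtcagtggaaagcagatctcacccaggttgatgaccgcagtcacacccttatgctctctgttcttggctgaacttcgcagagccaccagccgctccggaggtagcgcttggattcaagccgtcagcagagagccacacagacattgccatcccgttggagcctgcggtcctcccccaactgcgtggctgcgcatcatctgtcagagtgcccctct
AGGTCA occurred once, in the Pcp2 window on the strand of the gene, with its first base at position -12 from the start. Of the 27025 promoter windows of that table, 4319 (16.0%) held AGGTCA on either strand. The other sequences searched on both strands, TATAAA (14.2% of windows) and CAGCTG (16.1%), were in none of the 3 windows shown.

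The libraries held 5.18 to 30.46 M gene counts (M, mega), and 3 shallow ones held under 8 M: cerebellum KO 1 (6.5 M), olfactory bulb KO 2 (5.18 M) and olfactory bulb WT 1 (7.4 M). These 3 had a count for 13741 to 16483 genes, against 20024 to 22619 genes in the other 21 libraries. Cdr1as itself had 0 to 0.662 CPM (counts per M counts) in the KO libraries, against 364 to 4276 CPM in the WT libraries. The label of the tissue was checked against genes of cerebellar granule cells: their 10 genes summed to 6131 to 6614 CPM in the cerebellum and to 155.5 to 385.4 CPM in the other regions. Nothing in the labels says that the 3 libraries of a group came from separate animals. The p-values therefore rest on the spread among these samples, and that spread may be technical. In whole tissue, fewer Purkinje cells and less RNA per Purkinje cell cannot be told apart. Reads of Pcp2 and of Pet100, which overlaps it on the opposite strand (16005 and 4158 counts over all libraries), could have been exchanged, since the sources used here do not say whether counting used strand. The later annotation (GRCm38) also places antisense genes over Itpr1 and Rgs8, which were not analysed here, and without strand their reads would count toward those members. A pseudogene within Car8 had 346 counts, against 102055 for Car8.

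In WT mice all 7 members were higher in the cerebellum than in every other region. Pcp2, Ppp1r17 and Car8 had only low levels outside it. Against cortex, Pvalb was 10.2-fold higher, Rgs8 7.78-fold, Calb1 3.95-fold and Itpr1 3.74-fold. Cerebellum was tested against each other region with edgeR's quasi-likelihood F-test over the 12 WT libraries, and a gene was called at a Benjamini-Hochberg adjusted p under 0.05 over the 16995 genes tested. All 7 members were called higher against cortex, where 22.4% of all genes were, against hippocampus (19.4% of all genes), against olfactory bulb (17% of all genes) and against the mean of those 3 regions (22.7% of all genes). The largest adjusted p of a member was 1.442e-06. Likewise, the 3 WT cerebellum libraries lay above all 9 other WT libraries for all 7 members and for 2402 of the 16995 genes (14.1%).

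**Figure D1:**
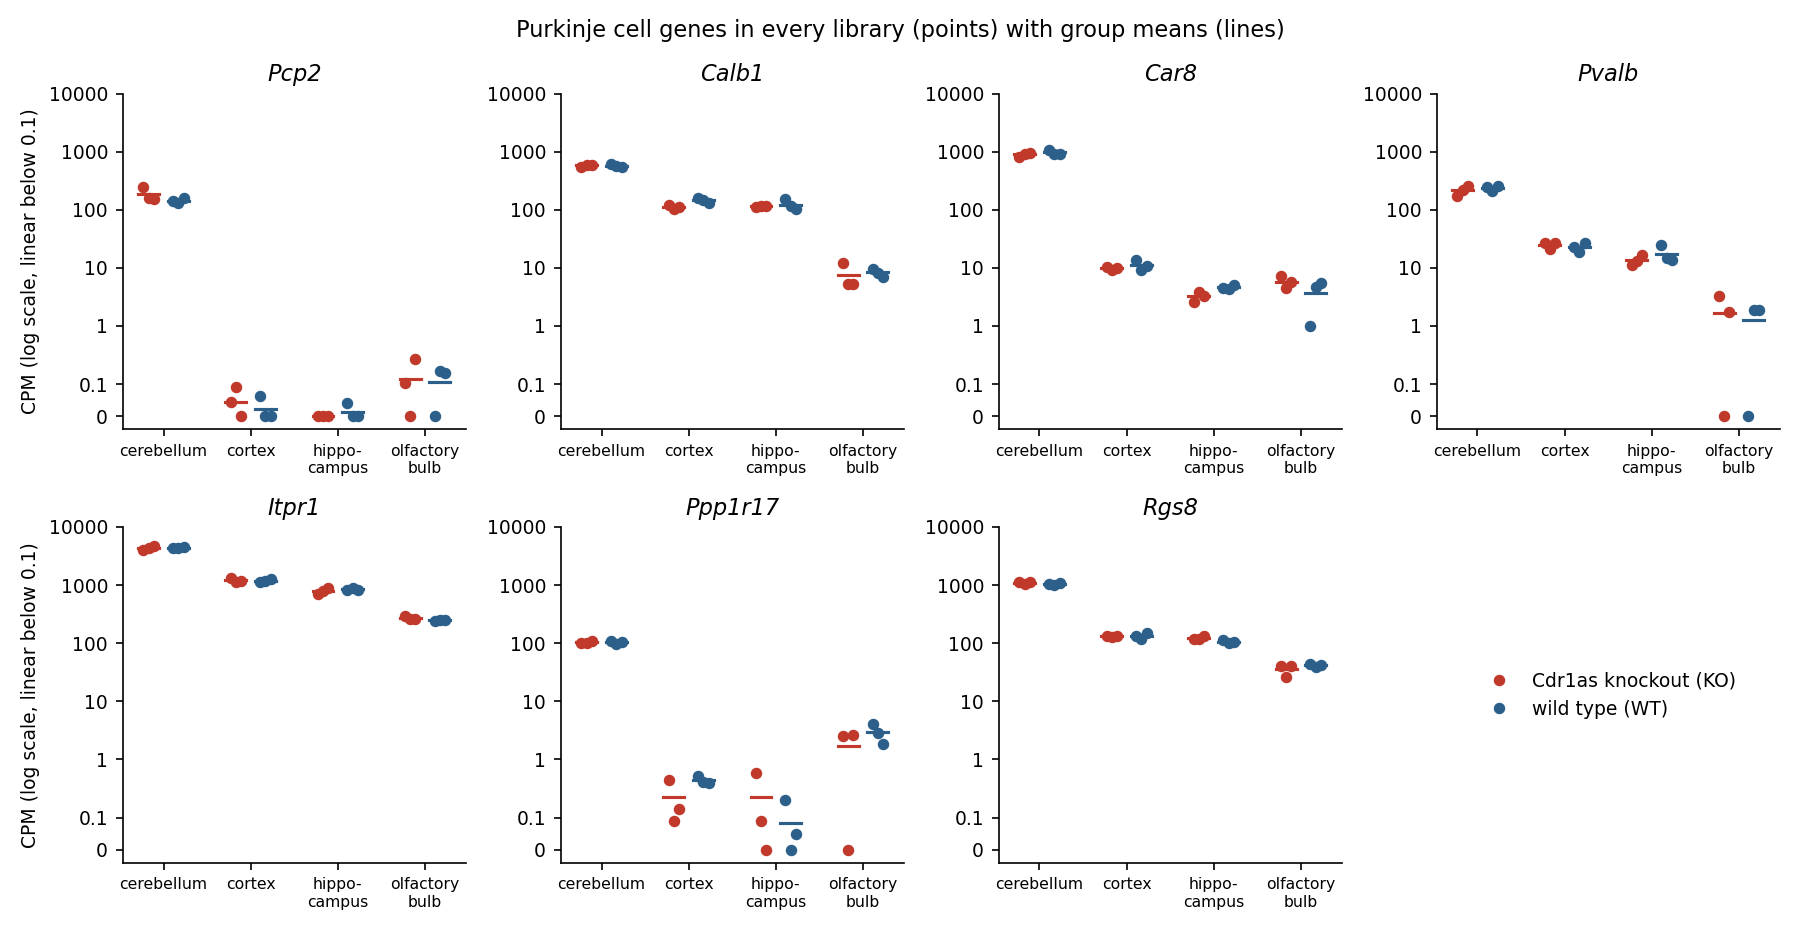
Level of each Purkinje cell gene in all 24 libraries, in CPM on a logarithmic axis that is linear below 0.1, with KO (red) left of WT (blue) in each region; points are libraries and short lines are group means of 3. The cerebellum points stand above those of every other region for all 7 genes, Pcp2 is at or near 0 outside the cerebellum, and KO and WT points lie close together in the cerebellum.

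Calb1, the calcium buffer calbindin, had 603, 569 and 554 CPM in the 3 WT cerebellum libraries. It had 159.4, 147 and 131 CPM in WT cortex, 153.2, 114.3 and 101.5 CPM in WT hippocampus and 9.65, 8.31 and 7.10 CPM in WT olfactory bulb. The cerebellum was thus highest and the olfactory bulb lowest in every library, while cortex and hippocampus overlapped. The log2 difference of cerebellum over the mean of the other regions was 3.44 (SE 0.11), ranging from 1.98 (SE 0.15) over cortex to 6.10 (SE 0.18) over olfactory bulb.

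Pvalb, the other calcium buffer, had 245, 207 and 257 CPM in WT cerebellum. WT cortex had 23.2, 19.0 and 26.9 CPM, WT hippocampus 24.6, 14.51 and 13.8 CPM and WT olfactory bulb 0, 1.88 and 1.87 CPM. Cortex and hippocampus again overlapped, and the olfactory bulb library listed at 0 was the shallow WT 1. Cerebellum exceeded the mean of the other regions by 4.81 (log2, SE 0.24).

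Itpr1, the IP3 receptor, had 4309, 4437 and 4508 CPM in WT cerebellum. The other regions followed in a fixed order without overlap, with 1118, 1159 and 1278 CPM in WT cortex, 815 to 898 CPM in WT hippocampus and 243 to 252 CPM in WT olfactory bulb. Its log2 difference of cerebellum over the mean of the others, 2.82 (SE 0.07), was the smallest of the 7 members. Car8, which binds that receptor, had 1069, 927 and 915 CPM in WT cerebellum. Its highest library elsewhere was a WT cortex library at 13.8 CPM, and WT hippocampus (4.34 to 5.10 CPM) overlapped WT olfactory bulb (1.003, 4.69 and 5.46 CPM). The difference for Car8 was 7.35 (SE 0.21), so the receptor and its binding partner were far apart in regional restriction.

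Pcp2 had 143.3, 128 and 158 CPM in WT cerebellum, from 9029 counts in all. Summed over 3 libraries, it had 1 count in WT cortex, 1 in WT hippocampus and 6 in WT olfactory bulb. With exact counting intervals, the cerebellum level was 975.6 times the olfactory bulb level (95% interval 448.1 to 2659), 7803 times the cortex level (1400 to 308300) and 9072 times the hippocampus level (1628 to 358300). These intervals cover counting error only, and the order of the 3 low regions was not resolved, since their libraries overlapped.

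Rgs8, which speeds the GTP hydrolysis of G-protein alpha subunits, had 1026, 997 and 1096 CPM in WT cerebellum. It had 133.8, 117 and 150.5 CPM in WT cortex, 113, 100.4 and 104 CPM in WT hippocampus and 44.6, 39.5 and 43.0 CPM in WT olfactory bulb. No neighbouring regions overlapped in this order, and the log2 difference of cerebellum over the mean of the others was 3.63 (SE 0.08).

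Ppp1r17, the phosphatase inhibitor, had 110.3, 97.0 and 104.9 CPM in WT cerebellum. Its next highest region was WT olfactory bulb at 4.14, 2.86 and 1.87 CPM, ahead of WT cortex (0.392 to 0.517 CPM) and WT hippocampus (0 to 0.203 CPM, 6 counts in all). No neighbours in that order overlapped. For Calb1, Car8, Pvalb, Itpr1 and Rgs8 the region with the next highest mean was the cortex instead. From pooled counts, the cerebellum level of Ppp1r17 was 34.74 times that of olfactory bulb (29.08 to 41.83), 261 times that of cortex (172.2 to 416.8) and 1113 times that of hippocampus (510.9 to 3033). These are exact 95% counting intervals and leave out the spread among libraries. With that spread, edgeR's fit gave a log2 difference of 5.17 over olfactory bulb (95% interval 4.61 to 5.73) and 7.88 over cortex (7.19 to 8.57).

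**Figure D2:**
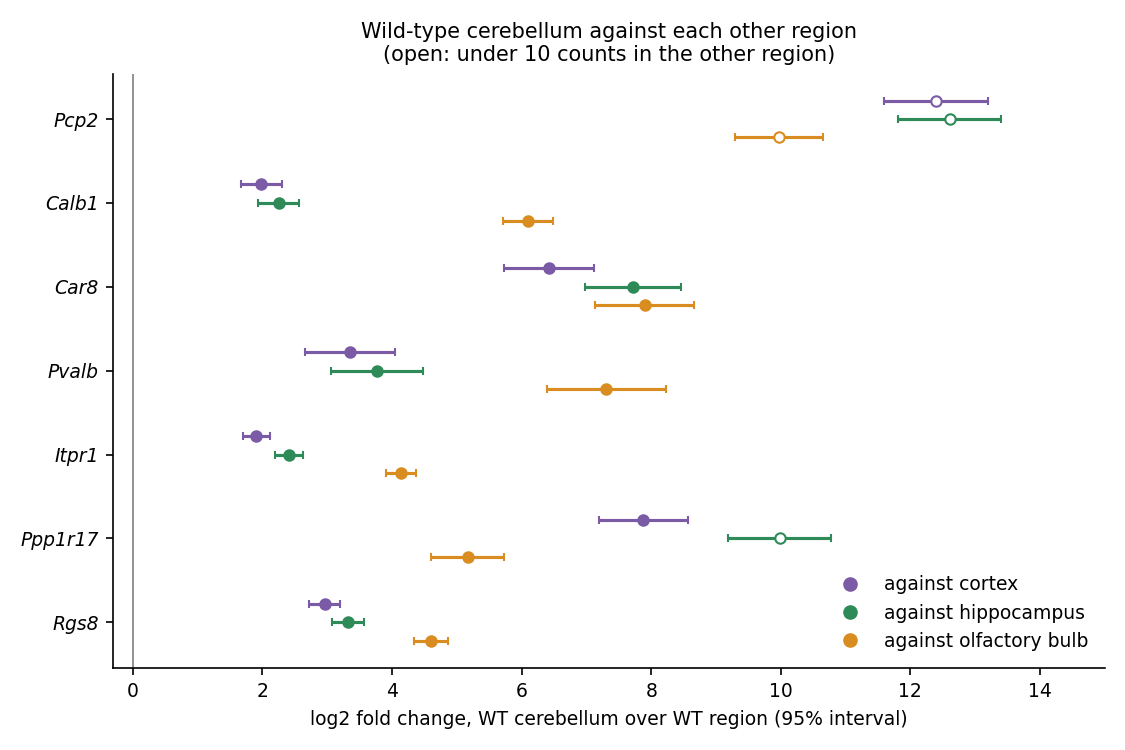
Log2 fold change of WT cerebellum over WT cortex (purple), hippocampus (green) and olfactory bulb (orange) for each member from edgeR's fit, with 95% intervals over 3 libraries a region; open symbols rest on under 10 counts in the other region, where the fitted value depends on a prior and is no bound. All intervals lie above 0, the smallest fitted value is 1.90 for Itpr1 over cortex, and the fitted olfactory bulb difference is the largest of the 3 for Calb1, Car8, Pvalb, Itpr1 and Rgs8.

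Compared per length, with the exon length of a later annotation (GRCm38) than the files' build, the members fell into levels within the WT cerebellum. Car8 (252 ± 22.2 CPM per kb), Itpr1 (241 ± 5.52) and Pvalb (227 ± 24.9; SD, n = 3) were highest, with overlapping libraries. Calb1 (119 ± 5.23) and Rgs8 (108 ± 5.26 CPM per kb) formed the middle, and Pcp2 (78.4 ± 8.18) and Ppp1r17 (59.2 ± 3.79 CPM per kb) were lowest. The length is that of all annotated exons together, which understates the level of a gene whose main transcript uses few of them. Of the summed means of the 4 WT regions, the cerebellum held 99.9% for Pcp2, 98.02% for Car8, 96.77% for Ppp1r17, 84.94% for Pvalb, 78.68% for Rgs8, 67.48% for Calb1 and 65.98% for Itpr1.

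The 18 genes of the metabotropic glutamate, IP3 and calcium pathway shared the direction in part. In WT mice, 12 of 18 were called higher in the cerebellum than in the mean of the other regions and 3 lower, with a median log2 difference of 0.99, against a median of -0.0009 over all genes and 4.81, the value of Pvalb, over the 7 members. Across all genes, 22.7% were called higher and 24.1% lower. Among the genes called higher were Homer3 (3.53, SE 0.11), a postsynaptic scaffold that ties these receptors to the IP3 receptor, Inpp5a (2.53, SE 0.10), which removes a phosphate from IP3, and Plcb4 (2.45, SE 0.09), a phospholipase C. The 3 lower genes, named after their values were seen, were the G-protein subunits Gnaq (-0.28, SE 0.08) and Gna11 (-0.49, SE 0.12) and the calcium channel Orai2 (-0.38, SE 0.11).

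Of 26 other genes known for Purkinje cells, 22 were called higher in WT cerebellum and 2 lower, with a median of 2.46. The homeobox gene Lhx1 averaged 61.7 ± 4.47 CPM in WT cerebellum, against at most 0.588 CPM in another region's mean, a log2 difference of 7.16 (SE 0.24). Arhgef33 followed with 142 ± 15.7 CPM in WT cerebellum and at most 2.66 CPM elsewhere (6.42, SE 0.19). The transcription factors Skor2 and En2 had 625 and 7504 counts in WT cerebellum, against 3 and 60 counts over the 9 other WT libraries. The 2 lower genes, named after their values were seen, were Gad1 (-0.55, SE 0.11) and Gad2 (-0.87, SE 0.09), the enzymes of GABA synthesis, whose highest WT means were in the olfactory bulb (1640 and 475 CPM).

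Close relatives of the members did not share their pattern as a group. Of the 17 relatives, 15 were tested against the mean of the other regions. In WT cerebellum 6 were called higher and 5 lower, and the median log2 difference of the 15 was 0.02. Among calcium-binding relatives, calretinin (Calb2) was higher (2.15, SE 0.18) but had as many CPM in WT olfactory bulb (236 ± 20.4) as in WT cerebellum (241 ± 3.65), while Ocm and S100g had at most 11 counts in a WT region and were not tested. Of the other IP3 receptors, Itpr3 was higher (1.48, SE 0.16) and Itpr2 was not called (-0.23, SE 0.11). Itpr3 had 2420 counts in WT cerebellum and 1655 in WT olfactory bulb, from 62.64 M and 40.61 M gene counts, so those levels were close.

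Of the carbonic anhydrase relatives, Car10, which like Car8 lacks the enzyme activity, was higher (1.80, SE 0.13), Car11, another such relative, was lower (-0.66, SE 0.11), and the active enzyme Car2 was not called (0.02, SE 0.15). Among relatives of Rgs8, Rgs16 was higher (0.61, SE 0.16), Rgs4 (-3.44, SE 0.18) and Rgs17 (-1.15, SE 0.18) were lower and Rgs7 was not called (0.24, SE 0.12). Gpsm1 was higher (0.85, SE 0.13), Gpsm2 was lower (-2.24, SE 0.16) and Gpsm3 was not called (-0.24, SE 0.50). These 3 share with Pcp2 the short motif that binds inhibitory G-protein alpha subunits. The phosphatase inhibitors Ppp1r1b (0.95, SE 0.18) and Ppp1r1a (-2.34, SE 0.18) lay on opposite sides. For Gpsm1 and Ppp1r1b, higher than the mean of the others did not make the cerebellum the highest region. Gpsm1 had 7639 counts in WT cerebellum (of 62.64 M gene counts) and 10162 in WT olfactory bulb (of 40.61 M). Ppp1r1b had 4575 counts in WT cerebellum and 9830 in WT cortex (of 54.14 M).

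Other cell types of the cerebellum differed between regions in the same WT libraries, and their part in the members' values was not tested. All 10 granule cell genes were called higher (median 4.63), with Fat2 at 2609 ± 208 CPM and Cbln3 at 1086 ± 43.3 CPM in WT cerebellum. Of 8 Bergmann glia genes, 6 were higher and 1 lower (median 1.19), led by Gdf10 (3.90, SE 0.15) and A2m (3.54, SE 0.20). Of 10 genes of cerebellar interneurons, a cell class that also makes parvalbumin, 8 were higher and 2 lower (median 1.33), among them Tfap2b (5.03, SE 0.21).

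Lists for neurons outside the cerebellum, some of which share single members, had more genes lower than higher against the mean of the other regions, but not against every region. Of 10 genes of forebrain parvalbumin interneurons, 6 were lower in WT cerebellum and 3 higher (median -0.89), with Lhx6, which specifies those cells, at -3.57 (SE 0.37), and with Syt2, a vesicle protein, at 4.61 (SE 0.08). Against olfactory bulb alone, 3 were lower and 3 higher (median 0.09). Of 5 genes of dentate granule cells, which hold calbindin, 3 were lower and 2 higher (median -1.57), with Lct at -3.25 (SE 0.36). Against hippocampus 4 were lower and 0 higher, against cortex 2 were lower and 2 higher (median 1.47), and against olfactory bulb 0 were lower and 2 higher. Of 6 olfactory bulb genes, 5 were lower and 1, Eomes (1.89, SE 0.17), was higher (median -1.98). Against olfactory bulb alone all 6 were lower, Eomes included (-2.19, SE 0.20), and against hippocampus 1 was lower and 4 were higher. None of the 6 choroid plexus genes was called, with 2 at an unadjusted p under 0.05 and a median of 2.28, and against olfactory bulb alone 3 were higher and 1 lower. Their sum ran from 12.6 to 1071 CPM among the 3 WT cerebellum libraries.

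**Figure D3:**
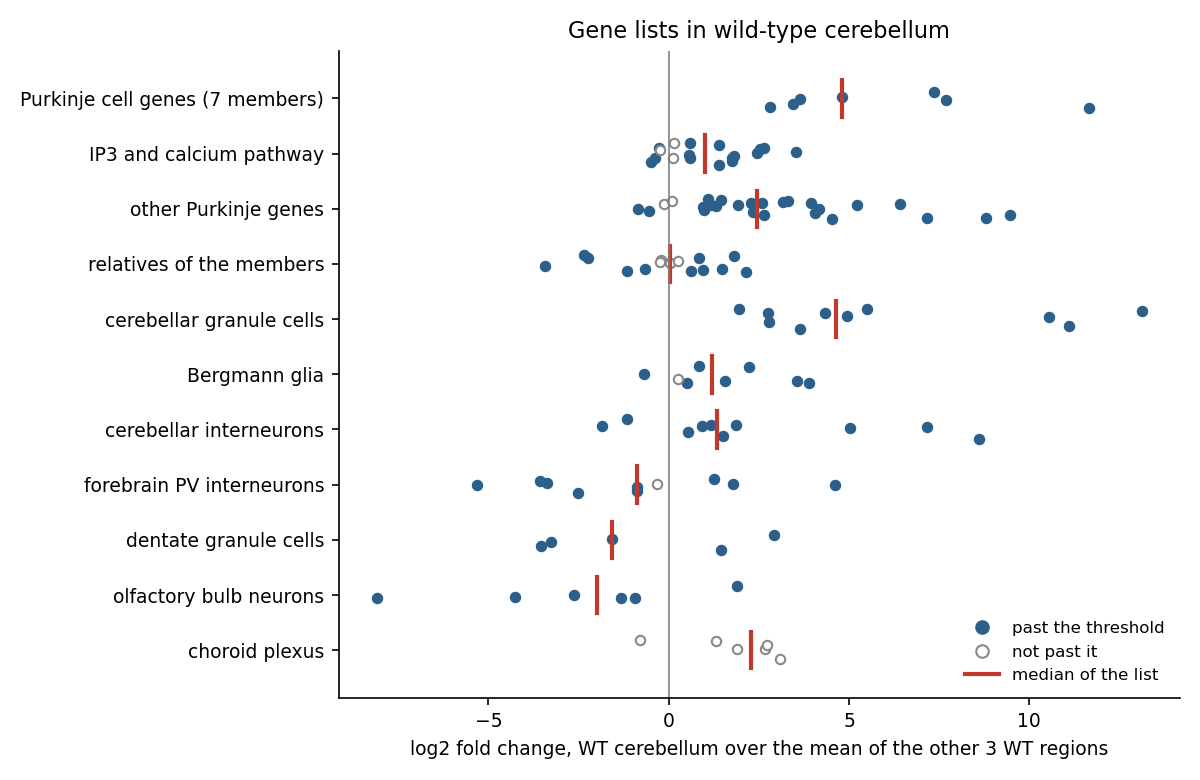
Log2 fold change of WT cerebellum over the mean of the other 3 WT regions for the members and 10 gene lists; each point is a gene (filled if called at an adjusted p under 0.05), and red lines are list medians. The median of the 7 members (4.81) is next to that of granule cell genes (4.63) and above the IP3 and calcium pathway (0.99) and the members' relatives (0.02); the most extreme points, such as Pcp2, rest on few counts on one side.

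Over all 24 libraries, the 10 genes whose log2 CPM was most like the mean of the standardized members, of 13203 genes with a mean log2 CPM of at least 1, had a Pearson r of 0.977 to 0.988. They included Boc, St8sia5, Cntn2, Rnf19b, Maf, Megf11, Slc1a6, Ptprr and Sgpp2. The libraries come from 4 regions and share them, so r is given as a description. Boc, a cell-surface co-receptor of hedgehog signalling, led with 151 CPM in WT cerebellum and 27.4, 21.1 and 12.6 CPM in WT cortex, hippocampus and olfactory bulb. Its means fell in the same order as those of 5 members, and it was picked for likeness to the members in these libraries. Slc1a6, the Purkinje cell glutamate transporter, had 104 CPM in WT cerebellum and 3.83 to 7.44 CPM elsewhere.

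No member was called as changed by the Cdr1as knockout in any region. Of 28 pairs of member and region, 23 held enough counts to be tested: Pcp2 was tested in the cerebellum only, and Ppp1r17 in cerebellum and olfactory bulb. KO was tested against WT in each region, 3 libraries against 3, by edgeR's quasi-likelihood F-test with adjustment over all genes tested, which numbered 15536 to 16119. The share of all genes called was 0.00644% in cerebellum, 0.00634% in cortex, 0.0062% in hippocampus and 0.0253% in olfactory bulb, so a count of 0 members was near the background. The 1 gene called in cerebellum, in cortex and in hippocampus was Cdr1as itself, which was also among the 4 genes called in olfactory bulb. DESeq2 also called no member in any region. At an unadjusted p under 0.05 there were 0 of 7 members in cerebellum (1.89% of all genes), 1 of 5 in cortex (5.64%), 2 of 5 in hippocampus (4.01%) and 0 of 6 in olfactory bulb (2.43%).

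KO and WT libraries did not overlap for 4 of the 23 tested pairs: Calb1 in cortex, Car8 and Rgs8 in hippocampus and Itpr1 in olfactory bulb. The share of all tested genes without overlap was 11.3% in cerebellum, 13.4% in cortex, 9.47% in hippocampus and 11.6% in olfactory bulb. No member lacked overlap in more than 1 region.

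In the cerebellum, where the members are high, the genotypes overlapped for all 7. Calb1 had 551, 593 and 599 CPM in KO cerebellum, against 603, 569 and 554 CPM in WT, a log2 fold change of 0.03 (SE 0.07). Itpr1 had 4029, 4340 and 4672 CPM in KO cerebellum, against 4309, 4437 and 4508 CPM in WT (-0.01, SE 0.07). The 3 KO libraries of Itpr1 spread more widely than the 3 WT libraries and included both the lowest and the highest value. Rgs8 had 1140, 1030 and 1126 CPM in KO cerebellum, against 997 to 1096 CPM in WT (0.09, SE 0.08).

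Car8 had 806, 910 and 963 CPM in KO cerebellum, against 1069, 927 and 915 CPM in WT (-0.11, SE 0.09). Pvalb had 171, 216 and 259 CPM in KO cerebellum, against 245, 207 and 257 CPM in WT (-0.12, SE 0.15). For both genes the lowest value was that of KO 1, the shallow library. KO 1 also held the lowest cerebellum value of Calb1 (551 CPM) and of Itpr1 (4029 CPM) and the highest of Rgs8 (1140 CPM). Ppp1r17 had 100.4, 98.9 and 109.9 CPM in KO cerebellum, against 110.3, 97.0 and 104.9 CPM in WT (-0.0034, SE 0.09). For these 6 members the 95% intervals of the log2 fold change lay within -0.47 to 0.27, that is, 0.720- to 1.21-fold, with adjusted p of 0.949 to 0.995 in edgeR.

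Pcp2 was the least certain member in the cerebellum. It had 244, 158 and 152 CPM in KO cerebellum, against 143.3, 128 and 158.2 CPM in WT. KO 1, the library with 6.5 M counts, was the highest of the 6, and the other 2 KO libraries lay inside the WT range. The log2 fold change was 0.37 (SE 0.19, 95% interval -0.07 to 0.82; edgeR adjusted p = 0.949), and 0.11 without that library. Among markers of other cells, the olfactory bulb list, of which Eomes also marks a cell type of the cerebellar cortex, summed to 59.7 to 72.4 CPM in KO cerebellum and 24.04 to 33.3 CPM in WT. Of its 3 genes tested there, 1 was at an unadjusted p under 0.05 (Eomes, log2 1.27, SE 0.17, edgeR adjusted p = 0.391). Sp8 and Tbx21 were at 0 in all 3 KO libraries but had only 2 and 4 counts over the 3 WT cerebellum libraries, too few to test. A part of cells with these markers in the members' values was not tested.

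**Figure D4:**
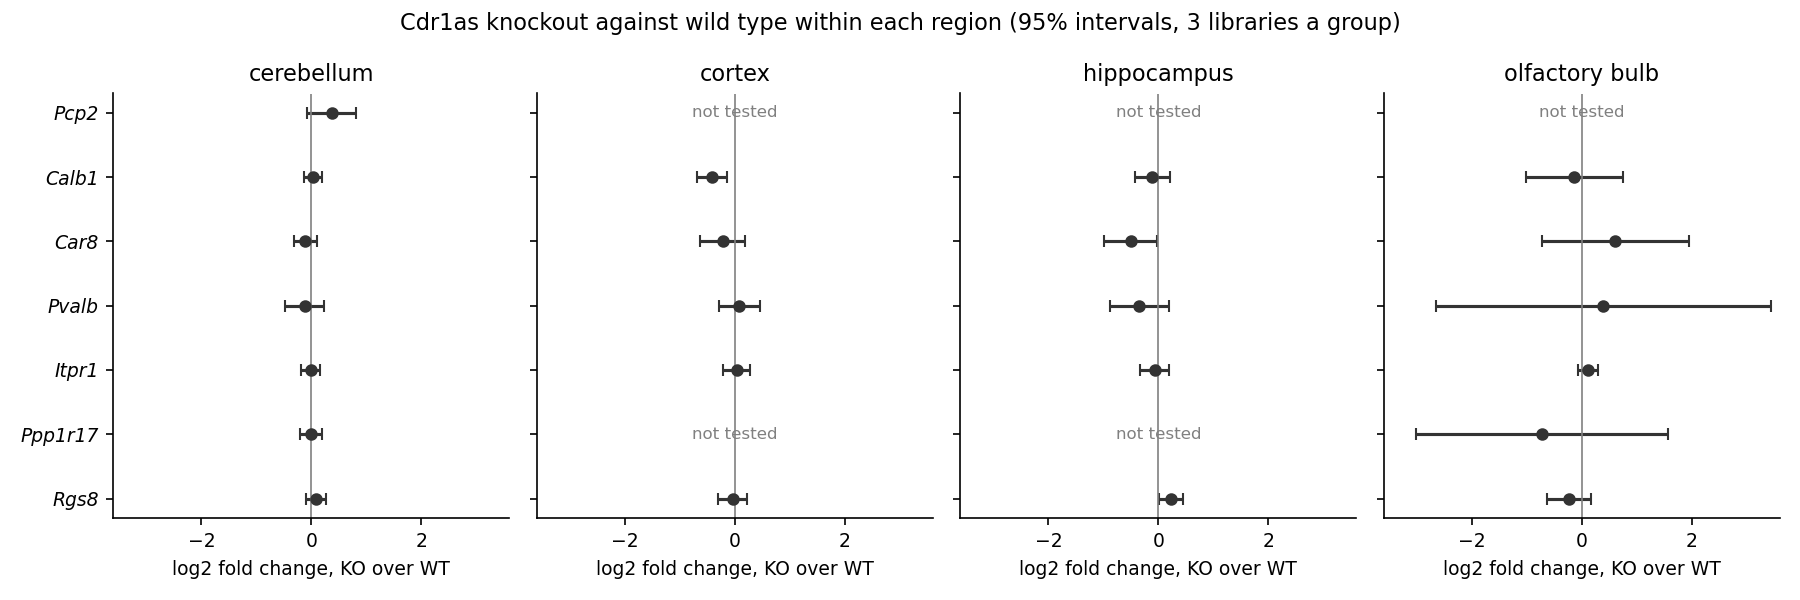
Log2 fold change of KO over WT for each member in each region from edgeR's fit, with 95% intervals over 3 libraries a group; members with too few counts are marked as not tested. Intervals in the cerebellum span 0 and are widest for Pcp2, followed by Pvalb. Those for Pvalb and Ppp1r17 in the olfactory bulb reach from -3.01 to 3.44. Calb1 in cortex and Car8 and Rgs8 in hippocampus have intervals that leave out 0 before adjustment.

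In cortex, Calb1 had 120.4, 101 and 109.7 CPM in KO, against 159.4, 147 and 131 CPM in WT. All 3 KO libraries were thus below all 3 WT libraries, by a log2 fold change of -0.42 (SE 0.12, 95% interval -0.70 to -0.15), and the edgeR adjusted p was 0.858. Cortex KO and WT libraries of number 1 and of number 2 deviated together. Reads in no gene were 53.75% in KO 2 and 56.19% in WT 2, against 20.34 to 34.9% in the other cortex libraries. A part of this in the values was not tested. With the replicate number as a block, the log2 fold change of Calb1 was -0.42 with an edgeR adjusted p of 0.167. In that blocked fit 30 genes passed the threshold, against 1 without the block, and no member was among them. Beside it, the olfactory bulb list summed to 7.09 to 7.42 CPM in KO cortex and 15.4 to 26.3 CPM in WT cortex. Of its 5 genes tested, 4 were at an unadjusted p under 0.05, and none of the 6 genes was at 0 in all libraries of a genotype. The parvalbumin interneuron list overlapped (852 to 917 CPM in KO cortex, 813.5 to 896 CPM in WT), and a part of either list in the Calb1 values was not tested.

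The other members showed no such separation in cortex. Car8 had 10.4, 9.02 and 9.94 CPM in KO cortex, against 13.8, 9.21 and 10.7 CPM in WT (-0.22, SE 0.18). Pvalb had 26.6, 20.8 and 27.2 CPM in KO cortex, against 23.2, 19.0 and 26.9 CPM in WT (0.08, SE 0.16). Itpr1 (0.03, SE 0.11) and Rgs8 (-0.04, SE 0.12) overlapped as well, with 1149 to 1345 CPM in KO and 1118 to 1278 CPM in WT for Itpr1, and 128 to 135.5 CPM in KO and 117 to 150.5 CPM in WT for Rgs8. Untested Pcp2 and Ppp1r17 had 3 and 14 counts over the 3 KO cortex libraries, against 1 and 22 counts in WT.

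In hippocampus, Car8 had 2.58, 3.90 and 3.31 CPM in KO, against 4.58, 4.34 and 5.10 CPM in WT. All 3 KO libraries were below all 3 WT libraries at a level well under that of the cerebellum, with a log2 fold change of -0.50 (SE 0.21, 95% interval -0.98 to -0.02, edgeR adjusted p = 0.953). Rgs8 had the opposite sign, with 120.1, 119 and 133.5 CPM in KO hippocampus, against 113, 100.4 and 104 CPM in WT. The log2 fold change of Rgs8 was 0.24 (SE 0.10, 95% interval 0.02 to 0.45, edgeR adjusted p = 0.953).

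Calb1 in hippocampus had 113, 114.3 and 113.9 CPM in KO, against 153.2, 114.3 and 101.5 CPM in WT, so the KO libraries lay close together inside the WT range (-0.11, SE 0.14). Pvalb had 11.4, 13.2 and 16.9 CPM in KO hippocampus, against 24.6, 14.51 and 13.8 CPM in WT (-0.35, SE 0.24). For both, WT 1 was the highest library. In WT 1, 37.01% of reads were in no gene and 21.41% were not uniquely aligned. The other hippocampus libraries had 48.33 to 55.45% and 10.53 to 12.85%, and a part of this in the values was not tested. Itpr1 had 707 to 907 CPM in KO hippocampus and 815 to 898 CPM in WT (-0.07, SE 0.11). Untested Pcp2 was listed at 0 in all 3 KO libraries and Ppp1r17 had 11 counts over them, against 1 and 6 counts in WT.

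Markers of choroid plexus, a tissue next to the hippocampus, were high in 2 of the 3 WT libraries and in no KO library. Their 6 genes summed to 33.3 to 39.3 CPM in KO hippocampus and to 2343, 33.3 and 1852 CPM in WT 1, 2 and 3. All 5 tested were at an unadjusted p under 0.05, none was called, and no gene was at 0 in all libraries of a genotype. The lists of dentate granule cells (386 to 504 CPM in KO hippocampus, 336 to 425 CPM in WT) and of parvalbumin interneurons (630 to 747.5 CPM in KO, 628 to 756 CPM in WT) overlapped. Without WT 1 the log2 fold change of Car8 was -0.53 and that of Rgs8 0.28, and without WT 3 they were -0.44 and 0.23. Each of these fits kept the other WT library with a high choroid plexus sum. A part of choroid plexus RNA in the members' values was not tested.

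In the olfactory bulb, Itpr1 had 297, 263 and 258 CPM in KO, against 243, 252 and 252 CPM in WT. The KO libraries were all higher, by a log2 fold change of 0.12 (SE 0.08, 95% interval -0.06 to 0.30, edgeR adjusted p = 0.992). Rgs8 had 41.2, 26.7 and 40.1 CPM in KO olfactory bulb, against 44.6, 39.5 and 43.0 CPM in WT (-0.23, SE 0.18). Its lowest value was that of KO 2, the library with 5.18 M counts.

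The remaining members were low there, and their errors were wide. Calb1 had 12.3, 5.27 and 5.2 CPM in KO olfactory bulb, against 9.65, 8.31 and 7.10 CPM in WT (-0.13, SE 0.40). Car8 had 7.18, 4.57 and 5.63 CPM in KO olfactory bulb, against 1.003, 4.69 and 5.46 CPM in WT (0.61, SE 0.59, and 0.19 without the shallow WT 1). Pvalb (3.23, 0 and 1.72 CPM in KO, 0, 1.88 and 1.87 CPM in WT) and Ppp1r17 (2.498, 0 and 2.68 CPM in KO, 4.14, 2.86 and 1.87 CPM in WT) had their zeros in the 2 shallow libraries. At the mean CPM of the other 2 libraries of the group, Pvalb would have had 14.1 counts in KO 2 and 14.9 in WT 1, and Ppp1r17 14.7 in KO 2. Their 95% intervals reached from -2.65 to 3.44 and from -3.01 to 1.56. Pcp2 had 7 counts over the 3 KO libraries, against 6 in WT.

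The regional pattern of the members held in KO mice too. In KO libraries the cerebellum held 99.91% of the summed region means for Pcp2, 97.93% for both Car8 and Ppp1r17, 84.21% for Pvalb, 79.01% for Rgs8, 71.49% for Calb1 and 65.37% for Itpr1. Pcp2 was at least 3267-fold higher in KO cerebellum than in KO hippocampus, taking 3 counts over the group as the floor for its 0 counts there. Per kb, the KO cerebellum had Itpr1 (237 ± 17.5), Car8 (232 ± 20.6) and Pvalb (207 ± 42.2 CPM per kb; SD, n = 3) on top and Ppp1r17 (58.7 ± 3.39 CPM per kb) lowest.

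Whether the knockout effect differed between regions was tested as each region's effect minus the mean effect of the other 3, in 1 edgeR fit over 24 libraries and 17600 genes. Pcp2 and Ppp1r17 are left out here, since they held too few counts in some regions. None of the 20 tests of the other 5 members passed, with adjusted p of 1 throughout, and the share of all genes called was 0.00568% for cerebellum, for cortex and for hippocampus and 0% for olfactory bulb. At an unadjusted p under 0.05 there were 2 of the 20, both for the olfactory bulb. The share of all genes at that level was 2.51% for cerebellum, 2.07% for cortex, 1.26% for hippocampus and 3.67% for olfactory bulb. They were Car8 (0.85, SE 0.31), which was 0.53 without the shallow WT 1, and Rgs8 (-0.31, SE 0.14), which was -0.15 without the shallow KO 2.

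Beyond the members, none of the 106 list genes tested in cerebellum, 105 in cortex, 102 in hippocampus and 100 in olfactory bulb was called between KO and WT by edgeR. At an unadjusted p under 0.05 there were 2 of them in cerebellum (1.89% of all genes), 16 in cortex (5.64%), 12 in hippocampus (4.01%) and 4 in olfactory bulb (2.43%). The 16 in cortex include the 4 olfactory bulb genes and the 12 in hippocampus the 5 choroid plexus genes described above. Of the 18 pathway genes, 0 were at an unadjusted p under 0.05 in cerebellum, 2 in cortex, 2 in hippocampus and 0 in olfactory bulb, and their median log2 fold change ran from 0.02 in olfactory bulb to 0.12 in hippocampus. Of the 26 other Purkinje cell genes, all were tested in cerebellum, where 0 were at an unadjusted p under 0.05 and the median was 0.04, against a median of -0.04 over all genes.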

How the data were processed

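TRIzol extraction, removal of ribosomal RNA with RNase H and a stranded total RNA kit were used, per the labels' protocols. The submitters' processing notes name bcl2fastq 2.17.1.14, STAR 2.5.1b, HTSeq 0.6.1p1 and the mm9 build, without roles or settings. The authors deposited raw read counts for each gene in a separate table for every library, and the 5 summary entries of a table were left out. Symbols were matched for 32897 of 37620 Ensembl identifiers. CPM use TMM factors over 24 libraries, and exon lengths come from GENCODE vM21 (GRCm38).

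Tests used edgeR 4.0.16 in R 4.3.3 (limma 3.58.1; quasi-likelihood F-test, robust, TMM, filterByExpr at a minimum count of 10, Benjamini-Hochberg over all genes tested, two-sided, threshold 0.05) and were tested on simulated data. The SE is the log2 fold change divided by the square root of F. Alternatives were DESeq2 1.42.0, RLE factors, library totals, no filter, a minimum of 30, all 24 libraries in 1 fit, a replicate block and leaving out libraries. Deviations of same-numbered KO and WT cortex libraries had r across genes of 0.399 for number 1, 0.532 for number 2 and 0.104 for number 3. Cortex KO 3 reached 0.288 with a WT library of another number. In cerebellum r was 0.057 to 0.098 for the same number and at most 0.006 for unlike numbers. In hippocampus and olfactory bulb r was -0.176 to 0.134 for the same number. Labels do not state a pairing. WT libraries of the same number deviated together in 12 of 18 pairs across regions (r over 0.1, from -0.169 to 0.432 over all 18), among them all 3 pairs of cerebellum and cortex (0.298 to 0.361). With the block, all 7 members were still called higher in WT cerebellum. The members, gene lists, tests and alternatives were chosen with earlier results of these data known. Named genes were the members, their relatives, the 4 largest called differences of each list between WT cerebellum and the other regions, and the 10 genes most like the members. Some genes that this rule names are not reported here. No protein sequences were used here.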

Additional observations from a re-analysis of the deposited data

How the results depend on the processing

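No tested member passed the threshold for KO against WT, or for the differences between regions, under any alternative run, and all 7 members passed for WT cerebellum against each region under every one. Counts of all genes past the KO against WT threshold moved most. In cerebellum, cortex, hippocampus and olfactory bulb they were 1, 1, 1 and 4, against 19, 41, 16 and 17 with DESeq2, 3, 7, 5 and 16 without a low-count filter and 4, 6, 2 and 7 with all 24 libraries in 1 fit. With a block for the replicate number they were 1, 30, 6 and 11, and the block changed no call of a member. Leaving out 1 library gave 1 to 3, 1 to 3, 1 to 47 (47 without hippocampus WT 2) and 1 to 8 genes. Without the 3 libraries under 8 M counts, an alternative chosen after seeing the data, cerebellum had 3 genes. For the difference of the knockout effect of a region from the others, cerebellum, cortex and hippocampus had 1 gene each and 3 each with DESeq2, hippocampus 0 with the block, and leaving out 1 library gave 1 to 2, 1 to 2, 0 to 3 and, for olfactory bulb, 0 to 1 genes. The cause was not tested.

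Small KO against WT differences changed sign. In cerebellum, Itpr1 (-0.0139) was 0.0022 at a minimum count of 30, 0.0030 with library totals and 0.03 without the shallow libraries, Ppp1r17 (-0.0034) was 0.0125, 0.0131 and 0.0057 under the same settings, and Pvalb (-0.1235) was 0.0080 without the shallow libraries. In olfactory bulb without them, Calb1 (-0.1328) was 0.1603 and Ppp1r17 (-0.7224) was 0.0805. Leaving out 1 library gave, in cerebellum, -0.0557 to 0.03 for Itpr1, -0.0399 to 0.0343 for Ppp1r17 and -0.2642 to 0.0080 for Pvalb, in cortex, -0.0179 to 0.0909 for Itpr1, -0.0241 to 0.2125 for Pvalb and -0.1183 to 0.0516 for Rgs8, in hippocampus, -0.2263 to 0.0759 for Calb1 and -0.1716 to 0.0211 for Itpr1, and in olfactory bulb, -0.6765 to 0.0815 for Calb1 and -0.4761 to 0.8725 for Pvalb. For WT cerebellum against the mean of the others it gave -0.0669 to 0.0924 for Car2 and -0.7527 to 0.0687 for Gpsm3. Calls of other named genes changed for Dsp, Shisa3, Rgs16, Itpr2 and Rgs7 under 1 or 2 settings each. In olfactory bulb, 7 KO and 6 WT counts were too few to test Pcp2.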
